A study of Mus musculus with 92 samples.

Results

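The genes described here are 42 genes of the DNA replication machinery, read in single cells from the bone marrow of mice that carry a mutant Gfi1 gene. They were taken from a list of replication genes, with the condition that a gene is present in the expression table and detected (above 0) in no less than 25% of the cells in a sort gate. All 42 listed genes met it, out of 23956 gene symbols in the table, of which 7803 met the same condition on detection. The cells came from C57BL/6 mice with the genotype Gfi1-R412X/R412X. R412X places an early stop codon in the coding sequence of GFI1, a zinc finger repressor needed for granulocyte development, and both groups carry it on both alleles. One group is 45 cells of the GMP gate (commonly the granulocyte-monocyte progenitor). The other is 47 cells of the CD11b+ GMP-P gate, whose name gives CD11b, an integrin subunit of myeloid cells. Marrow from crushed hindlimbs was enriched for CD117, the KIT receptor, then sorted and lysed cell by cell on a Fluidigm C1 chip. There are 0 wild-type cells in this series as used here, and the labels give neither the age nor the number of mice.

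The sample names give the gates different date codes and cell numbers, so the gate cannot be told apart from the animal, the chip run or the day. Each gate is 1 set of cells with no replicate. Cells are not replicates of a condition, so 0 p-values were computed and every difference below describes these cells. The spread given as ± SD is that between cells. Against the gate labels, Itgam, the gene for CD11b, was above 0 in 17 of 45 GMP cells (median 0 TPM) and 38 of 47 CD11b+ GMP-P cells (median 39.7 TPM). Cd34, a progenitor marker, was above 0 in 39 and 16 cells, and Kit in 34 and 23. The 9 late granule genes summed to a median of 326 TPM in GMP and 179918 TPM in CD11b+ GMP-P.

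TPM, used throughout, is transcripts per 1000000, the share of a cell's RNA assigned to a gene after correction for gene length.

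Before a cell divides, its DNA is copied once. Licensing proteins load a ring of 6 MCM subunits onto origins, CDC45 and the GINS proteins turn the ring into a working helicase, and primase and polymerases then copy both strands behind a sliding clamp. Transcription of most of these genes rises as a cell leaves G1 under the E2F factors, whereas the genes of mitosis peak later in the cycle. In the marrow, progenitors committed to granulocytes divide repeatedly and stop dividing as they mature.

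The promoters of the MCM ring genes, 5 of whose 6 promoters are in the table, and of the members with the lowest (Rpa2) and the highest (Rrm2) gate difference are shown first because many of them hold E2F-type sequences. They are RefSeq promoters of build GRCm38.p6, from 250 bases before to 50 bases after the annotated start, 5′ to 3′ on the gene's strand. This build is not the mm9 of the deposited values and was used for these sequences only. Capitals mark every match to TTCCCGC or TTCGCGC or TTGCCGC or TTGGCGC on either strand, and neighbouring matches may overlap.
Mcm2, chr6:88898731-88899030, minus strand: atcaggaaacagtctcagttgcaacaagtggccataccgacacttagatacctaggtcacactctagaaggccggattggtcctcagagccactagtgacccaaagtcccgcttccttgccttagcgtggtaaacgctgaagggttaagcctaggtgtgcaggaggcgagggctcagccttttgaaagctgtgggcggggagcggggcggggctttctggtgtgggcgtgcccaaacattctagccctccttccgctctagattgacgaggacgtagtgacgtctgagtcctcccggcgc
Mcm3, chr1:20820263-20820562, minus strand: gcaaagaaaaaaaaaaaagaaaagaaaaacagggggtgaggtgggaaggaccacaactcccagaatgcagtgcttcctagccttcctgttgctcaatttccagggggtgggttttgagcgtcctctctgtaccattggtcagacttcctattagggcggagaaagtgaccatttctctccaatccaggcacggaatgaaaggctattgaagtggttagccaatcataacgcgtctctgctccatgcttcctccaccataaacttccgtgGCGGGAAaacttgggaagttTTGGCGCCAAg
Mcm5, chr8:75109259-75109558, plus strand: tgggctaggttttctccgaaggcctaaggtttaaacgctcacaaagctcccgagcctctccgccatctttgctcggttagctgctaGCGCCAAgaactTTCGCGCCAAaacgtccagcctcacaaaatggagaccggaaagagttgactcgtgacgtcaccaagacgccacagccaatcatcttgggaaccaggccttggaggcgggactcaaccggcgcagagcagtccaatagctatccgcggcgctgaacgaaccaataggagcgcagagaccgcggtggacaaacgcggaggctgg
Mcm6, chr1:128359656-128359955, minus strand: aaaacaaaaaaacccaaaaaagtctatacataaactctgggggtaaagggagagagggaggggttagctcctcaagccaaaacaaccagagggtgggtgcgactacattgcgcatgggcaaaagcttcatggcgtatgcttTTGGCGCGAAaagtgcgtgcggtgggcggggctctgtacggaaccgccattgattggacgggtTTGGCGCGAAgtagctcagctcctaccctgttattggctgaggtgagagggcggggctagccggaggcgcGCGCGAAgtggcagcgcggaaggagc
Mcm7, chr5:138171834-138172133, minus strand: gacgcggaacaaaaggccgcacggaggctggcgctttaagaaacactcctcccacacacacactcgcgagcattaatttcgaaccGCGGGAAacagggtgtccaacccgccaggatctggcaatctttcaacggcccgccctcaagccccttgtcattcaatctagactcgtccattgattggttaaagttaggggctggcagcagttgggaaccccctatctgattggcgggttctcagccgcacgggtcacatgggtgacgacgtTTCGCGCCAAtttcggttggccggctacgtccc
Rpa2, chr4:132768110-132768409, plus strand: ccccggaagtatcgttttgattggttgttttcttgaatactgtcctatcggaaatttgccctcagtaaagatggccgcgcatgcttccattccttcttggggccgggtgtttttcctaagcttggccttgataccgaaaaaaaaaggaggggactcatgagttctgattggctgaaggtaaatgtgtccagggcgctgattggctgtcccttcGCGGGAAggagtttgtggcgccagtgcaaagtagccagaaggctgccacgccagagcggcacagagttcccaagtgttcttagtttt
Rrm2, chr12:24708004-24708303, plus strand: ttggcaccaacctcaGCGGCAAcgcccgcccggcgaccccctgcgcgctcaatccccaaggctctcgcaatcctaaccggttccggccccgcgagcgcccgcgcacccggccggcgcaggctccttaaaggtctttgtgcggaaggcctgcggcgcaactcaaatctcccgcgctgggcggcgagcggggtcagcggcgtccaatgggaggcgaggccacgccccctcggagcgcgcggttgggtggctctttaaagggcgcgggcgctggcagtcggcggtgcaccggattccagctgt
Mcm6 held 5 matches, Mcm3 and Mcm5 held 3 each, Rpa2 and Rrm2 held 1 each, and Mcm2 held 0. Mcm7 has another promoter in the table, with 1 match, and the one shown holds 3. Mcm4, Gins1, Gins2, Gins4, Rfc2, Prim2 and Pole are not in the promoter table, which left 35 of the 42 members.

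At least 1 E2F-type match was present in 24 of those 35 members (68.6%). The same letters were in the promoters of 10.9% of all 27025 genes of the promoter table and of 20.9% of the 5954 genes that were compared between the gates and have a promoter there. In a list of 30 genes of mitosis, 26 had a promoter and 4 of them (15.4%) held a match. CCAAT, on either strand and in the same windows, was in 21 of 35 members (60%), in 41.1% of all genes and in 21 of the 26 mitosis genes (80.8%). A match is a run of letters and not a measured binding site.

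Levels are in TPM, and means were taken of log2(TPM + 1). Most members were widely detected in GMP cells and less widely in CD11b+ GMP-P cells. In GMP, 12 of the 42 were above 0 in at least 90% of cells and 37 in at least 50%. In CD11b+ GMP-P, 3 were above 0 in at least 90% and 26 in at least 50%. The 25% condition was met there by 40 of 42, and Gins3 and Pole2 (21.3% each) entered through GMP alone. The share of cells above 0 was lower in CD11b+ GMP-P for 40 of 42 members, the share above 1 TPM for 42 and the share above 10 TPM for 41. Over all 7803 genes compared the share was likewise lower for 84.7%, 84.9% and 80.1%. The median TPM was 0 for 5 members in GMP and for 16 in CD11b+ GMP-P. For these medians and for the 90% and 50% cuts no share over all genes was counted.

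Of the 42 members, 39 (92.9%) had a lower mean in CD11b+ GMP-P than in GMP, as did 83% of all 7803 genes compared. A difference was counted when the means of log2(TPM + 1) lay at least 1 apart, called 2-fold here. By this rule 26 of 42 were lower and 0 were higher, with a median difference (CD11b+ GMP-P minus GMP) of -1.31. Among all 7803 genes compared, 39% were lower by this rule and 2.72% higher, and their median was -0.74. Most genes thus lay lower in this gate, and the members' median lay 0.57 below that of all genes. The members were not set beside genes of like level, so whether this gap is particular to them is not known. For 12 housekeeping genes the median was -1.20, with 9 lower by this rule. Genes above 0 per cell had a median of 5611 in GMP and 4143 in CD11b+ GMP-P. Between 22 cells of each gate paired within 250 genes detected, the members' median was -0.15 (all genes -0.07), with 10 lower and 5 higher. Of all genes 14.4% were lower and 12% higher in these cells. Pairing also changed the mix of states. Myelo-2 cells had 1993 to 3257 genes detected and Myelo-4 cells 2148 to 2319. Only GMP cells 23 (3069 genes) and 25 (2775 genes) lay within 250 genes of any of them. Most Myelo-2 and Myelo-4 cells are therefore absent from every paired value between the gates, and the parts of state and of genes detected were not separated. Without the 3 Myelo states, which were found in CD11b+ GMP-P, the members' median was -0.47 (all genes -0.31), with 14 lower and 1 higher. Of all genes 17.8% were then lower and 5.14% higher.

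**Figure D1:**
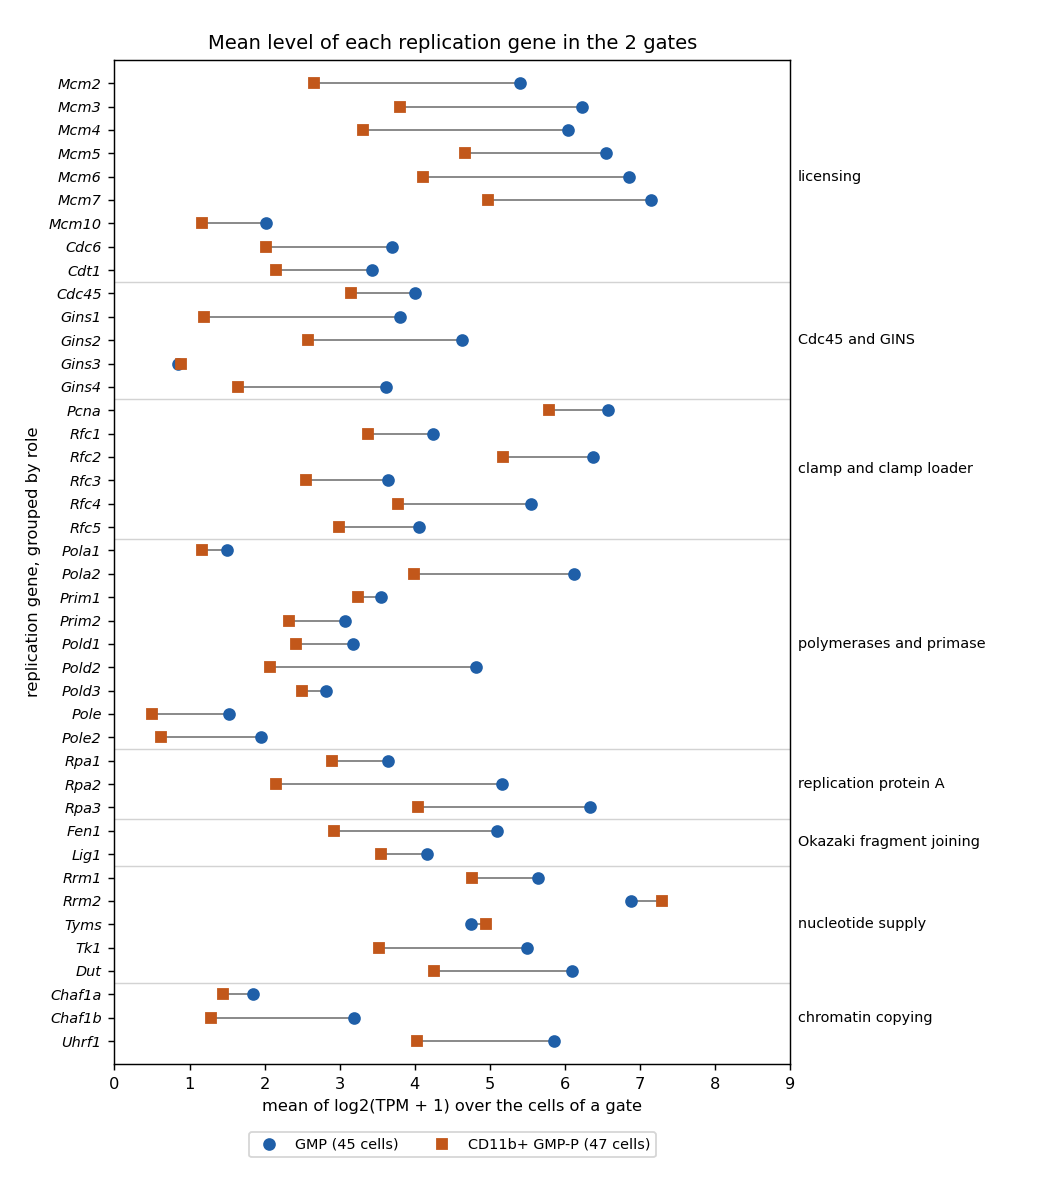
Mean of log2(TPM + 1) of each of the 42 replication genes (rows, grouped by role) over 45 GMP cells (circles) and 47 CD11b+ GMP-P cells (squares), joined by a line. The squares lie left of the circles for 39 genes, and Rrm2, Tyms and Gins3 are the exceptions.

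All 9 members of the licensing group had a lower mean in CD11b+ GMP-P, as did 83% of all genes, and their median was -2.18. By the 2-fold rule 8 of them (88.9%) were lower, against 39% of all genes. Mcm2, a ring subunit, ran from 0 to 887 TPM in GMP (median 85.3, above 0 in 38 of 45 cells) and from 0 to 1116 TPM in CD11b+ GMP-P (median 0.45, 26 of 47 cells). Its mean of log2(TPM + 1) was 5.40 ± 3.06 (SD, 45 cells) and 2.65 ± 3.31 (SD, 47 cells), a difference of -2.75. The ranges overlapped, and Mcm2 was above 10 TPM in 34 GMP cells and 18 CD11b+ GMP-P cells. Among the cells paired on genes detected the difference for Mcm2 was -2.03, and that for Mcm4 -1.36.

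Mcm6 had a median of 212 TPM in GMP and 20.9 TPM in CD11b+ GMP-P, with highest values of 990 and 738 TPM, and a difference in means of -2.74. Mcm4 had medians of 108 and 2.92 TPM and a difference of -2.73, and Mcm3 medians of 171 and 12.2 TPM and a difference of -2.42. Mcm7 had medians of 253 and 58.6 TPM with a difference of -2.18. Mcm5 had the smallest difference of the 6 ring genes, -1.88, with medians of 155 and 55.5 TPM, and was above 0 in 44 of 45 and 42 of 47 cells. In the paired cells, Mcm6 (-0.39) and Mcm7 (-0.08) lay within 2-fold, as did Mcm3 (-0.68), while Mcm5 was at -1.15. Cdc6 and Cdt1, the factors that load the ring, differed by -1.68 and -1.29, and Mcm10, which acts when origins fire, by -0.85.

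The MCM ring is a protein complex of 6 different subunits, and only their transcripts were read here. All 6 transcripts were above 0 in 35 of 45 GMP cells (77.8%, 95% exact Clopper-Pearson interval 62.9 to 88.8) and in 17 of 47 CD11b+ GMP-P cells (36.2%, 22.7 to 51.5). The intervals cover counting error only. With a floor of 1 TPM the counts were 29 and 13 cells. In 15 CD11b+ GMP-P cells, against 3 of GMP, at most 3 of the 6 were above 0. Cells of CD11b+ GMP-P also had fewer genes detected at the median, and a transcript at 0 may have been missed. This count was not repeated in cells paired on genes detected, nor set beside other groups of 6 genes.

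Cdc45 and the GINS genes encode the helicase's partners. Gins1 was above 0 in 30 of 45 GMP cells (median 21.5 TPM) and 12 of 47 CD11b+ GMP-P cells (median 0), with a difference in means of -2.61. Gins2 and Gins4 differed by -2.05 and -1.97. Gins3, the least detected member in GMP, was above 0 in 37.8% and 21.3% of cells and its means were 0.84 ± 1.70 and 0.88 ± 2.05. Cdc45 was above 0 in 31 and 24 cells, with a difference of -0.85.

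Among the genes of the sliding clamp and its loader, 4 of 6 (66.7%) were at least 2-fold lower, against 39% of all genes. Pcna, the clamp itself, ran from 0 to 1086 TPM in GMP (median 201) and from 0 to 1284 TPM in CD11b+ GMP-P (median 170). Its mean levels were 6.57 ± 3.15 (SD, 45 cells) and 5.78 ± 3.97 (SD, 47 cells), a difference of -0.79 that became 0.46 in the paired cells and 0.77 without the Myelo states. Pcna has annotated pseudogenes, as does Tyms, and reads of near-identical copies cannot be assigned with certainty. The loader subunits Rfc1 to Rfc5 differed by -0.87 to -1.77, with Rfc4 the lowest.

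The polymerases were mixed. Pola2, the B subunit of polymerase alpha, was above 0 in 45 of 45 GMP cells, from 12.3 to 485 TPM (median 58.2). In CD11b+ GMP-P it was above 0 in 46 of 47, at most 301 TPM (median 14.8), with a difference in means of -2.14. Of all members, only Pola2, Tyms and Rrm2 were above 0 in at least 90% of CD11b+ GMP-P cells. Pold2, a small subunit of polymerase delta, had medians of 42.4 and 0 TPM and a difference of -2.74, which was -0.84 in the paired cells. The catalytic subunit genes Pola1 and Pold1 differed by -0.34 and -0.76, and Pole by -1.02. Prim1 and Prim2, the primase genes, differed by -0.30 and -0.75, Pold3 by -0.33 and Pole2 by -1.33.

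Replication protein A coats single-stranded DNA as a complex of 3 subunits. Rpa2 had the lowest difference of all members, -3.01. It was above 0 in 37 of 45 GMP cells, from 0 to 696 TPM (median 79.8), and in 18 of 47 CD11b+ GMP-P cells, from 0 to 339 TPM (median 0). Its means were 5.16 ± 3.36 and 2.15 ± 3.07, and among paired cells its difference was -1.42. Rpa3 differed by -2.28 and Rpa1, the large subunit, by -0.76. Of the genes that join Okazaki fragments, Fen1, the flap nuclease, differed by -2.18 and Lig1, the ligase, by -0.61.

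Of the 5 nucleotide supply genes, 2 (Tk1 and Dut, 40%) were lower by the 2-fold rule, near the 39% of all genes, and 2 (Rrm2 and Tyms) had a higher mean in CD11b+ GMP-P. Rrm2, the small subunit of ribonucleotide reductase, ran from 0 to 1292 TPM in GMP (median 263, above 0 in 40 of 45 cells) and from 0 to 1525 TPM in CD11b+ GMP-P (median 448, 44 of 47 cells). Its means were 6.88 ± 3.22 and 7.29 ± 3.47, so the difference of 0.41 lay well inside the spread of cells. Tyms, thymidylate synthase, had medians of 19.96 and 53.9 TPM and a difference of 0.19. In the paired cells Rrm2 was 1.75 and Tyms 1.41 higher in CD11b+ GMP-P, and Gins3 was 1.06 higher. Rrm1, the large reductase subunit, differed by -0.88 (0.56 in the paired cells), Tk1, thymidine kinase, by -1.97 (-0.51) and Dut, the dUTPase, by -1.83 (-0.08).

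Of the genes that copy chromatin, Chaf1b, a subunit of chromatin assembly factor, was above 0 in 29 and 12 cells and differed by -1.90, and Chaf1a, its large subunit, differed by -0.40. Uhrf1, which links DNA methylation to the fork, had medians of 110 and 16.7 TPM and a difference of -1.82, which was -0.18 in the paired cells.

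The deposited annotation gives each cell 1 of 9 state names, and how they were made is not stated in the labels. If the naming used replication genes, an order of states by these genes describes the names. A replication score was taken as the mean of log2(TPM + 1) over the 42 genes in a cell. It ran from 0.80 to 6.66 in GMP (median 4.52) and from 0.10 to 6.34 in CD11b+ GMP-P (median 2.94). In GMP the median was 6.44 in 5 MP cells, 4.91 in 3 cMoP cells, 4.82 in 24 Mono cells, 4.67 in 6 Gran-1 cells, 4.01 in 2 Gran-2 cells and 2.35 in 5 Multi-Lin cells. In CD11b+ GMP-P it was 4.73 in 4 Gran-1 cells, 3.74 in 20 Gran-2 cells, 2.81 in 3 Myelo-1 cells, 1.86 in 15 Myelo-2 cells and 0.12 in 3 Myelo-4 cells. The single Mono cell of that gate scored 5.86 and the single Multi-Lin cell 1.57. Among states of at least 2 cells, neighbours in this order overlapped. All 3 Myelo-4 cells (0.10 to 0.53) lay below every Gran-1, Gran-2 and Myelo-1 cell of the gate.

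**Figure D2:**
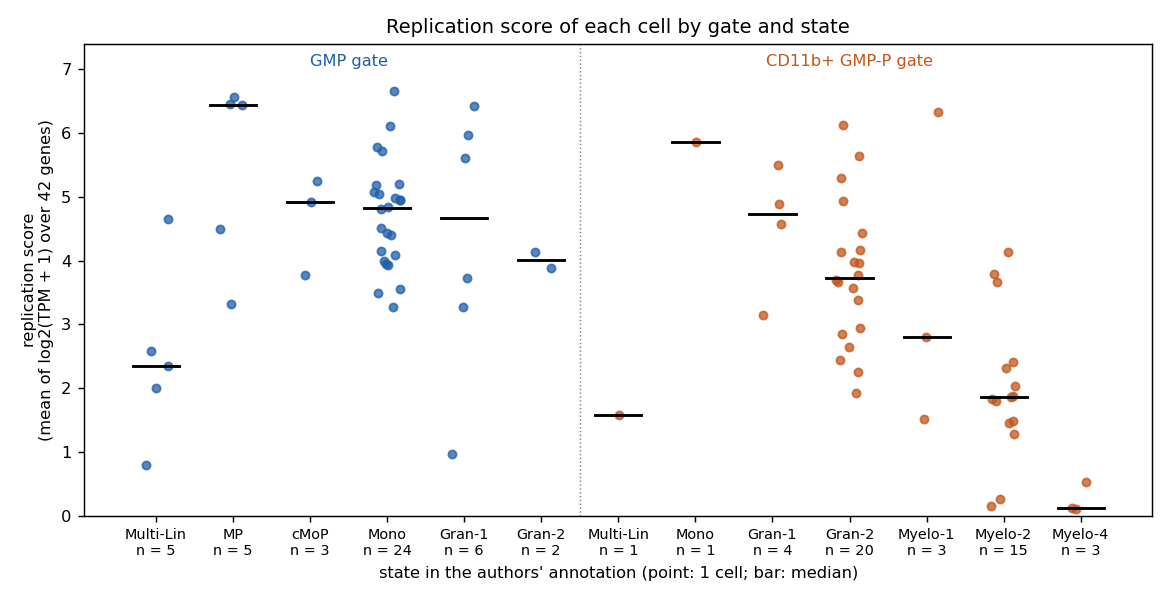
Replication score (mean of log2(TPM + 1) over 42 genes, vertical axis) of each cell, by state and gate, with a line at each median. The medians run from 0.12 in Myelo-4 to 6.44 in MP, and single cells of most states are spread widely.

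The score followed the number of genes detected, with Pearson r of 0.67 across 45 GMP cells and 0.72 across 47 CD11b+ GMP-P cells, points that share the sort and the date code of their gate. Median genes detected were 5623.5 in Mono, 3634 in Multi-Lin, 4595 in CD11b+ Gran-2, 2936 in Myelo-2 and 2192 in Myelo-4. After the mean of all genes in the same cell was subtracted, the median score of CD11b+ GMP-P minus that of GMP was -0.87, against -1.58 without that step.

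**Figure D3:**
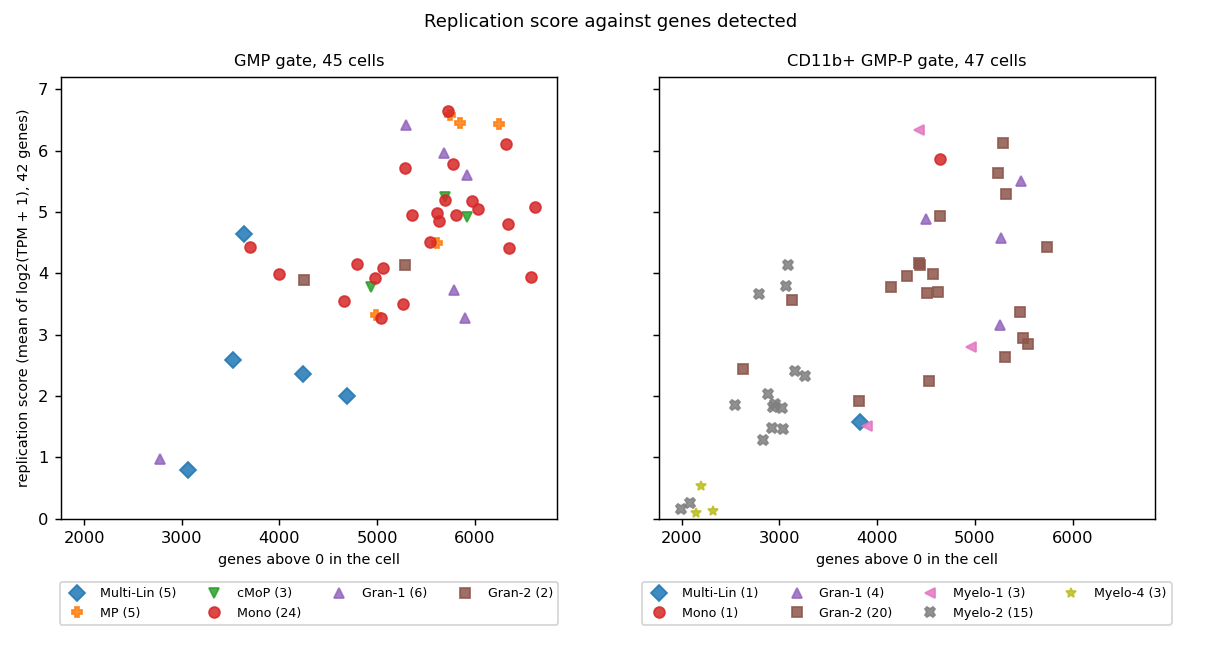
Replication score of each cell (vertical axis) against its number of genes above 0 (horizontal axis), in GMP (left) and CD11b+ GMP-P (right), with states by symbol. Cells with more genes detected score higher in both gates, and Myelo-2 and Myelo-4 cells sit at the left of the right panel.

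Within CD11b+ GMP-P, the states with enough cells to compare were Gran-2 (20 cells) and Myelo-2 (15 cells). All 6 ring genes were above 0 in 12 of 20 Gran-2 cells (60%, 36.1 to 80.9) and in 0 of 15 Myelo-2 cells (0%, 0 to 21.8), and 11 of the 15 Myelo-2 cells had at most 3 of them. Myelo-2 cells had fewer genes detected at the median than Gran-2 cells, as given above. Of 41 members compared, 32 were at least 2-fold lower in Myelo-2 and 0 higher, and the median (Myelo-2 minus Gran-2) was -1.66. Among all 7334 genes compared 51.2% were lower and 2.62% higher, with a median of -1.04.

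Mcm3 ran from 0 to 981 TPM in Gran-2 (median 29.3, 19 of 20 cells) and from 0 to 65.2 TPM in Myelo-2 (median 0, 6 of 15 cells), with means of 5.12 ± 2.80 and 1.34 ± 2.09 and a difference of -3.78. Dut was above 0 in all 20 Gran-2 cells, at 4.80 to 277 TPM (median 53.9), and in 11 of 15 Myelo-2 cells, at most 120 TPM (median 1.71), a difference of -3.59. Rpa2 was above 0 in 12 Gran-2 cells (median 13.3 TPM, highest 339) and in 1 Myelo-2 cell, at 0.49 TPM, a difference of -3.56. Both Gran-2 and Myelo-2 reach down to cells near 0 for Mcm3 and Rpa2, whereas the upper values belong to Gran-2. Gins1, Pole and Chaf1b were above 0 in 0 of 15 Myelo-2 cells and in 7, 6 and 5 of 20 Gran-2 cells. These genes passed the detection rule in Gran-2 alone, so they could only come out lower in Myelo-2. Rpa2 also passed in Gran-2 alone. The share of all genes at 0 in every Myelo-2 cell was not counted.

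Other ring genes lay the same way: Mcm5 differed by -3.51, Mcm6 by -3.39, Mcm2 by -2.52, Mcm4 by -2.50 and Mcm7 by -1.91. Pcna had medians of 549 and 16.9 TPM and a difference of -3.01, and Uhrf1 differed by -1.97. At the other end stood Chaf1a (0.39), Pold3 (0.38) and Rfc3 (-0.23), each above 0 in at most 10 of 20 Gran-2 cells. Rrm2 stayed high in most Myelo-2 cells. It was above 0 in 13 of 15, with a median of 585 TPM against 443 TPM in Gran-2, its mean differed by -1.14, and 2 cells were at 0. Tyms (-1.44), Rrm1 (-1.52) and Tk1 (-1.71) lay near the members' median.

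Transcripts of 9 late granule genes summed to a median of 517596 TPM in Myelo-2 and 148292 TPM in Gran-2, and those of 6 primary granule genes to 354 and 68629 TPM. Values of other genes are shares of what remains. With granule genes taken out of the total the members' median was -1.56, with 28 lower, against 48.6% of all genes. Compared as ratios of mean TPM it was -0.85, above the -1.12 of all genes, with 19 lower against 52.4%. After the medians of widely detected genes were set equal it was -0.79, with 17 lower against 29.8%. Only 2 pairs of cells could be matched on genes detected, so no matched value is given.

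**Figure D4:**
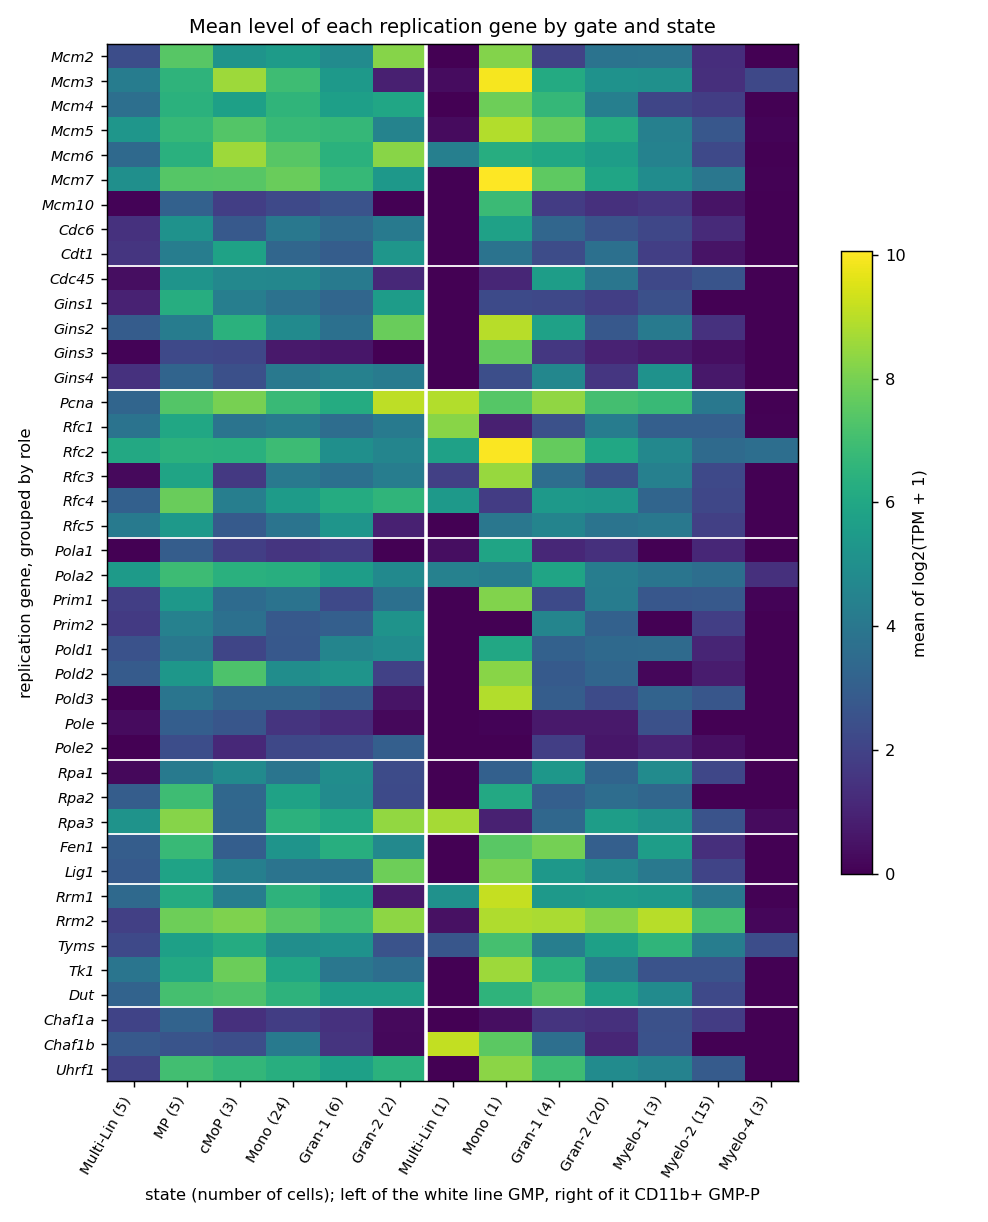
Mean of log2(TPM + 1) (colour) of each of the 42 replication genes (rows) in each state (columns, cell numbers in brackets), GMP left and CD11b+ GMP-P right of the white line. The Multi-Lin, Myelo-2 and Myelo-4 columns are dark for most genes, while Rrm2 stays bright in Myelo-1 and Myelo-2.

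In the 3 Myelo-4 cells 4, 7 and 8 of the 42 members were above 0, and at most 2 of them exceeded 10 TPM in any cell. Rrm2 was at most 0.22 TPM there. In contrast 1 of the 3 Myelo-1 cells scored 6.34, above every other cell of its gate, with 38 members above 0. The other Myelo-1 cells scored 1.51 and 2.81. Rrm2 was 324 to 649 TPM in all 3.

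Within GMP, the 5 Multi-Lin cells were set against the 24 Mono cells. In Multi-Lin 34 of 42 members lay at least 2-fold lower, 0 lay higher, and the median was -2.20. Among all 8315 genes compared 44.1% were lower and 9.38% higher, with a median of -0.81. Every licensing gene (9 of 9) and every nucleotide supply gene (5 of 5) was lower by this rule. Without cell 23, the Multi-Lin cell with the fewest genes detected (3069), 31 were lower, against 38.2% of all genes. The members' median was then -1.67 (all genes -0.58).

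Rrm2 had the lowest difference, -5.52. It was 0, 0, 0, 0.73 and 432 TPM in the 5 Multi-Lin cells and from 0 to 899 TPM in Mono (median 255, above 0 in 23 of 24 cells). One Multi-Lin cell, number 26, therefore lay in the Mono range and the other 4 lay near its floor. Uhrf1 was 0, 0, 0.22, 24.2 and 32.3 TPM in Multi-Lin against a Mono median of 136 TPM, a difference of -4.29. Cdc45 was 2.60 TPM in 1 Multi-Lin cell and 0 in the other 4, against a Mono median of 53.1 TPM, a difference of -4.27. It passed the detection rule in Mono alone, which favours a low value in Multi-Lin. So did, among others, the licensing genes Mcm10, Cdc6 and Cdt1, each above 0 in 1 Multi-Lin cell. Pola1, Pold3 and Pole2, at 0 in all 5 Multi-Lin cells, could only come out lower. The same rule held for all genes compared.

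Mcm6 was 0, 0, 0.59, 147 and 675 TPM in Multi-Lin and at least 18.2 TPM in every Mono cell, a difference of -3.97. Mcm2 differed by -3.13, Mcm4 by -2.93, Mcm3 and Mcm7 by -2.72 each and Mcm5 by -1.51. Mcm5 was 0, 0.22, 155, 522 and 874 TPM against a Mono median of 197 TPM, so 2 of the 5 Multi-Lin cells lay above it for this subunit. Pcna differed by -3.53, Dut by -3.29, Tyms by -2.77, and the ends on the other side were Rfc5 (0.25), Chaf1a (0.18) and Pold1 (-0.24).

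The Multi-Lin cells also held transcripts of basophils and mast cells. All 5 genes of that list were above 0 there, and their sum ran from 171 to 11016 TPM (median 3899), against 0 to 344 TPM in Mono with Fcer1a at 0 in all Mono cells. Their 7 monocyte genes summed to a median of 1.91 TPM against 625 TPM in Mono, with Irf8 and Cx3cr1 at 0. Their 8 stem and multipotent progenitor genes summed to a median of 1790 TPM against 447 TPM in Mono. Only 4 of these 8 genes were above 0 in any Multi-Lin cell, and Flt3, Hlf, Mecom and Procr were at 0 in all 5. In Mono all 8 were above 0 in some of the 24 cells. The erythroid genes had a median sum of 0 in both, but reached 1087 TPM in Multi-Lin and at most 40.2 TPM in Mono. Cd79b, the 1 gene of the B cell list above 0 in either state, reached 1039 TPM in Multi-Lin and 235 TPM in Mono. The part of these transcripts of several lineages in the result was not tested.

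The 5 MP cells lay on the other side of Mono for part of the list. In MP 18 of 42 members were at least 2-fold higher and 2 lower, with a median of 0.73. Among all 8553 genes compared 20.9% were higher and 13.1% lower, with a median of 0.12. Gins1 was 4.57, 33.4, 88.6, 382 and 413 TPM in MP and had a Mono median of 24.4 TPM (16 of 24 cells), a difference of 2.48. Rfc4 was 29.5 to 438 TPM in all 5 (Mono median 85.2) and differed by 2.25, and Lig1 was 19.4 to 114 TPM (Mono median 20.4) and differed by 1.97. The ranges overlapped, and the Mono cells at 0 for Gins1 and Rfc4 had no counterpart in MP.

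By role, the 18 higher members were 5 of 9 polymerase genes, 4 of 6 clamp genes, 2 of 2 of Okazaki joining, 2 of 3 of RPA, 2 of 5 of Cdc45 and GINS, 2 of 9 of licensing, 1 of 3 of chromatin copying and 0 of 5 of nucleotide supply. The shares by role were not tested against each other. Mcm2 differed by 1.92, but Mcm6 by -1.05, Gins4 by -0.83 and Chaf1b by -1.55. Paired on genes detected with 5 Mono cells, the median was -0.08, with 11 members higher and 9 lower, so the direction was not kept. Of all genes 22.5% were higher and 21.8% lower in those cells.

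The 6 Gran-1 cells of GMP gave 7 members at least 2-fold lower than in Mono and 4 higher, with a median of -0.44. Among all 8601 genes compared 21% were lower and 13.8% higher, with a median of -0.16. Chaf1b was 0 in 4 of the 6 cells and at most 436 TPM, a difference of -2.62, Tk1 differed by -1.97 and Rfc2 by -1.88. Pold1 (1.80), Rfc5 (1.37) and Fen1 (1.12) lay at the other end, and Fen1 was at -0.28 in paired cells. One Gran-1 cell, number 25, had 2775 genes detected and 10 members above 0. Without it the members' median was 0.29, with 3 lower, against 15.9% of all genes. The 3 GMP comparisons share the same Mono cells and are not independent.

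Across cells of a gate, members tended to be high together. Cells of all states were pooled here, and the replication score differed between states. The part of state in this likeness was not tested, and the pairs of all genes were not matched to the members in level. Over 861 pairs of members the median Pearson r was 0.22 in GMP and 0.28 in CD11b+ GMP-P, where pairs of all genes had 0.0355 and 0.0727. With the number of genes detected held constant (a partial correlation) the members' medians were 0.13 and 0.15, and those of all genes -0.0004 and -0.0065. Pairs of ring genes had median Pearson r of 0.32 and 0.49, and median partial r of 0.22 and 0.35. Against the mean of the other members, Rrm2 (0.77), Dut (0.75) and Uhrf1 (0.73) had the highest Pearson r in GMP. In CD11b+ GMP-P these were Dut (0.82), Lig1 (0.79) and Mcm6 (0.77). The partial r of these genes were 0.67, 0.62 and 0.70 in GMP and 0.66, 0.71 and 0.69 in CD11b+ GMP-P. Mcm5 stood at a Pearson r of 0.20 in GMP and 0.75 in CD11b+ GMP-P, a difference that was not tested. Chaf1a had the lowest Pearson r in both (0.08 and 0.10).

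The replication score was also read beside a mitosis score, the same mean over 30 genes such as Mki67, Top2a and Ccnb1. The mitosis score had a median of 2.86 in GMP and 3.37 in CD11b+ GMP-P. The 2 scores were weakly related across cells (r 0.12 over 45 cells of GMP and 0.19 over 47 of CD11b+ GMP-P), although each followed the number of genes detected. With genes detected held constant, r was -0.41 and -0.27. Taken singly, 36 members in GMP and 31 in CD11b+ GMP-P had a negative partial r with the mitosis score, and 28 of 42 did in both. The share of all genes with a negative partial r was not counted, so whether these counts are particular to the members is not known. Uhrf1 (-0.61), Rrm2 (-0.53) and Mcm6 (-0.44) were lowest in GMP, and Chaf1b (-0.51), Mcm6 (-0.38) and Mcm4 (-0.37) in CD11b+ GMP-P. Rrm2 had the highest value of all members in CD11b+ GMP-P (0.34), and the difference between gates was not tested.

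Cells were divided at each gate's own medians of both scores. In CD11b+ GMP-P 14 cells were high for mitosis alone, and 8 of these were Myelo-2 cells, 4 Gran-2 and 2 Myelo-1. Of the 15 Myelo-2 cells 9 were above the gate's mitosis median and 3 above its replication median. For Gran-2 the counts were 11 and 14 of 20. The median mitosis score was 4.01 in Myelo-2 and 4.15 in Gran-2, while the replication medians were 1.86 and 3.74. Gene by gene, 7 of the 30 mitosis genes were at least 2-fold lower in Myelo-2 than in Gran-2 and 2 higher, with a median of -0.26, where 51.2% of all genes were lower and their median was -1.04. The 3 Myelo-4 cells were low for both, with mitosis scores of 0.07 to 0.16. In GMP the 4 classes held 11, 11, 11 and 12 cells, with Multi-Lin cells 14 and 17 high for mitosis (5.42 and 4.93) at replication scores of 1.997 and 2.35.

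**Figure D5:**
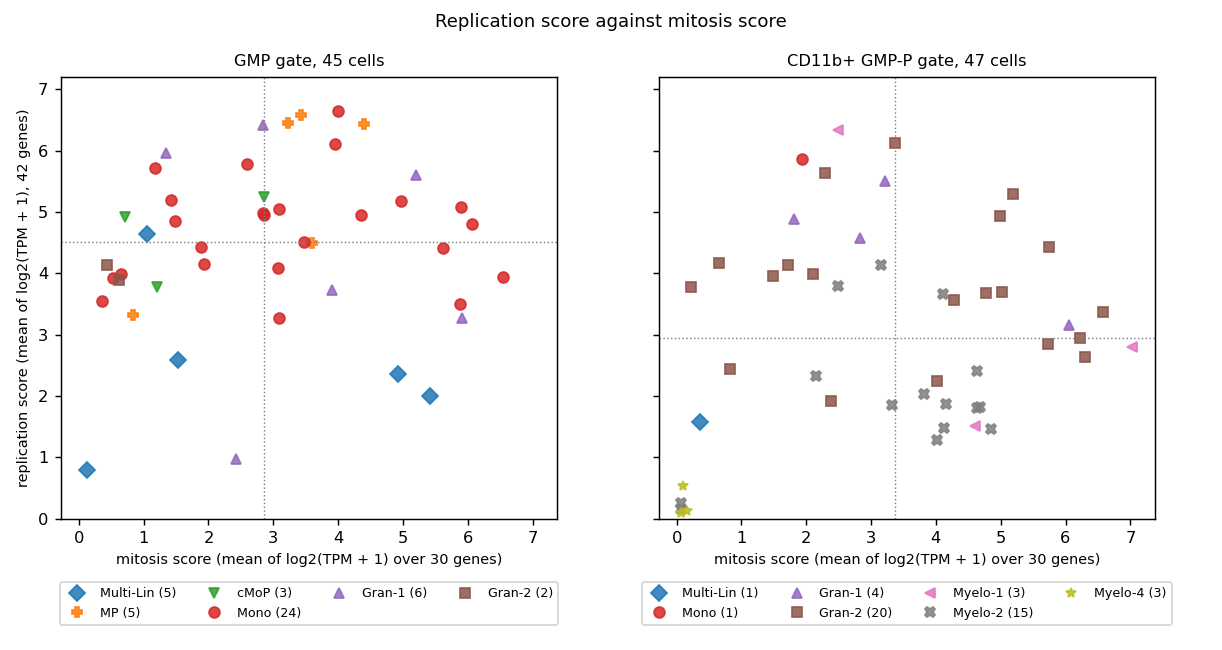
Replication score (42 genes, vertical axis) against mitosis score (30 genes, horizontal axis) of each cell in GMP (left) and CD11b+ GMP-P (right), with states by symbol and dotted lines at each gate's medians. At the lower right of the right panel 8 Myelo-2 cells lie above the mitosis median and below the replication median, and the 3 Myelo-4 cells lie at the lower left corner.

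Further replication genes outside the 42 lay near the level of all genes between the gates. Of 45 compared 19 (42.2%) were lower by the 2-fold rule in CD11b+ GMP-P, against 39% of all genes, and 1 was higher. Their median was -0.81, against -0.74 for all genes. Dctpp1, which clears damaged nucleotides (-2.93), Rnaseh2a, a subunit of ribonuclease H2 (-2.59), and Rbbp7, a histone chaperone (-2.54), were lowest. Asf1b, a histone chaperone of the fork, had medians of 29.7 and 331 TPM and differed by 1.70, followed by Dck (0.999) and Clspn (0.56). In Myelo-2 against Gran-2, 32 of 44 of these genes were lower and 2 higher, with a median of -1.69, where all genes had 51.2% lower, 2.62% higher and a median of -1.04. Dctpp1 was above 0 in 2 of 15 against 19 of 20 cells (-5.67), so it passed the detection rule in Gran-2 alone.

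Lists of other genes were counted in the same way between the gates, where 39% of all genes were lower and 2.72% higher, and no difference between lists was tested. Of 16 regulators of entry into S phase 2 (12.5%) were lower and 2 higher, with a median of -0.01. E2f6 (-1.47), a repressor of the E2F family, and E2f4 (-1.42) were lowest, followed by E2f1 (-0.60), and Cdkn2d, an inhibitor of the G1 kinases (2.10), E2f2 (1.40) and Cdkn1b (0.75) were highest. Of 30 mitosis genes 2 (6.67%) were lower and 3 higher, with a median of 0.44. Cdc20 (-1.61), Ccnb1 (-1.23) and Aurkb (-0.51) were lowest, and Top2a (1.71), Prc1 (1.41) and Mki67 (1.16) highest. Of 12 housekeeping genes 9 (75%) passed the rule as lower, and their median was -1.20, near the replication members' -1.31.

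The genes whose level was most like the replication score were ranked by the mean of the r in each gate, among 5822 genes detected in no less than 25% of cells in both gates. The highest were Sdf2l1 (0.65), Srsf7 (0.64), Phgdh (0.63), Pfas (0.63), Higd1a (0.63), Rbbp7 (0.61), Mt1 (0.61), Pbld1 (0.61), Exosc7 (0.61) and Cycs (0.61). The median over all ranked genes was 0.19, and these points share the number of genes detected.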

How the data were processed

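Single-cell RNA was read in 45 GMP and 47 CD11b+ GMP-P cells; libraries were paired-end at 150 bp in sets of 96 cells, per the labels' protocols. The authors deposited log2(TPM + 1) values per gene and cell, made with Bowtie2, RSEM and mm9 per the submitters' processing notes, with versions not given in the sources used here. TPM summed to 1000000 per cell without Ly6g, which lies outside that total, and 80.9% of all values were 0. No counts are used here, so read depth per cell is unknown. Another file deposited by the authors gives each cell a state, a category and not a measurement.

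TPM was recovered as 2 to the deposited log2 value, minus 1. Genes detected in no less than 25% of the cells in either group compared were assessed; means of log2(TPM + 1), which understates differences of low genes, were subtracted. No test between groups was run, as each gate is 1 set of cells; within states of 4 to 10 cells, single cells that stand apart were sought with Dixon's limits. The members and lists were chosen with earlier results of these data known. Full values are given for the ring and nucleotide genes, Pcna, Uhrf1 and the extremes of each comparison; other gene lists are named by their extremes. Motifs were searched in RefSeq promoters (GRCm38.p6). Alternatives covered the pseudocount, detection filter, scaling, ratio of mean TPM, cell pairing and cells left out. Only the difference of means was checked on simulated data, drawn from these values with known shifts added to every value, zeros included. That check did not imitate missed transcripts and did not cover pairing, scores, motifs or correlations. Python 3.11.15, numpy 2.4.6, pandas 2.3.3, scipy 1.17.1 and matplotlib 3.10.9 were used.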

Additional observations from a re-analysis of the deposited data

Results flagged for a closer look

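Among the 6 Gran-1 cells of GMP, cell 25 stood far from the others in the number of replication genes above 0. It had 10 of the 42 above 0, and the next cell had 30. The gap made up 0.667 of the whole range of the 6 cells, above the 95% limit of Dixon's test for a group of that size. The same cell had 2775 genes detected. Of 24 groups of values examined in this way this was the 1 that passed its limit, and chance alone passes about 1 in 20.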

How the results depend on the processing

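The cause of the shifts below was not tested. Between the gates, the members' median of -1.31 was -1.99 with a pseudocount of 0.1 TPM and -0.70 with 10 TPM. As a ratio of mean TPM it was -0.67 (11 of 42 lower), where all genes had -0.52 and 30.2% lower. In paired cells, which leave out most Myelo-2 and Myelo-4 cells, it was -0.15 (10 lower, against 14.4% of all genes). Without the Myelo states it was -0.47 (14 lower, against 17.8%), and relative to all genes -0.57. For Myelo-2 against Gran-2, -1.66 became -2.72 with 0.1 TPM and -0.77 with 10 TPM (16 of 41 lower, against 23.8% of all genes). As a ratio of mean TPM it was -0.85 (19 lower, against 52.4%), and with equal medians -0.79 (17 lower, against 29.8%). For Multi-Lin against Mono, -2.20 became -3.53 with 0.1 TPM, -1.09 (21 lower, against 20.9% of all genes) with 10 TPM and -1.28 as a ratio. For MP against Mono, 0.73 became 0.45 with 10 TPM (8 higher, against 7.46% of all genes) and 0.17 as a ratio (6 higher, against 15.2%). In paired cells it was -0.085 (11 higher, against 22.5%), a change of direction. For Gran-1 against Mono, -0.44 became 0.29 without cell 25 (3 lower, against 15.9% of all genes), also a change of direction. It was -0.21 with 10 TPM (4 lower, against 6.72%) and -0.14 as a ratio (3 lower, against 33.1%). With 0.1 TPM 13 were lower (31.4% of all genes), as were 13 in paired cells (25.4%), where Fen1 turned to -0.28. Scores relative to all genes differed by -0.87 between the gates and -0.90 between Myelo-2 and Gran-2. Given genes detected, the members' pairwise r was 0.13 and 0.15, and the r of replication with mitosis turned from 0.12 to -0.41 in GMP and from 0.19 to -0.27 in CD11b+ GMP-P. Of 385 values of named genes under the alternatives 214 stayed within 1.5 times the main value with the same sign. The 214 include 41 with detection in 10% of the cells and 41 with no detection filter, settings that cannot change a gene's own difference. With cells matched on genes detected 5 stayed and 23 moved, and without the Myelo states 17 moved. The sign turned in 23 of the 385 values. Of these, 1 (Fen1) was of a gene at least 2-fold apart and 22 were of genes less far apart, such as Pcna, Rrm1 and Prim1. Of 100 summaries 60 stayed within 1.5 times (for counts of members set beside scores, kept their direction), 36 moved further and 4 turned. Leaving out the 5 cells under 2500 genes, cell 23 and cell 25, and subtracting the median of all genes, were chosen after seeing the data. The gates could not be paired by animal, because the labels name no animals. Pairing on genes detected was not run for Myelo-2 or Multi-Lin, which gave under 5 pairs. Each state rests on few cells, and a 0 may be a transcript missed in that cell.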
